A study of Mus musculus with 6 samples.

Results

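Of the 18778 mouse genes that the 4 deposited gene tables name, 4178 carry no gene symbol, and the marks at the start sites of these genes are described here. The symbol cell was blank for 1611 of them, which still have a description such as a small RNA family or a RefSeq entry. For the other 2567 both the symbol and the description were given as NA. Each region was the start site, meaning the gene start on the plus strand or the gene end on the minus strand, with 1 kb on either side. A start site counted as marked when a listed peak lay within 1000 bp of it. The choice of members used no measured value at the start site, but the gene tables list only genes that the authors paired with a peak.

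The cells were mouse, of the strain C57BL/6. Neural stem cells (NSCs) derived from embryonic stem cells, at passages 25 to 30 and differentiation day 0, were compared with neurons made from them by day 11. For the neurons, differentiation took 4 days in a first medium and 7 days in a second, so cell type and medium cannot be told apart. The NSCs were labelled negative for RedStar, and the neurons were FACS-sorted for this red fluorescent reporter, which the Tau promoter drives. Chromatin immunoprecipitation and sequencing was done in 1 library per cell type for H3K4me3 and for H3K27me3, giving 4 libraries with peak lists, beside 1 input library per cell type. With 1 library per group no difference has a replicate check, no test was possible, and the exact (Clopper-Pearson) 95% intervals given below cover counting error only.

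Trimethylation of histone H3 at lysine 4 (H3K4me3) is laid down around transcription start sites that are active or poised, mostly at CpG-rich promoters. Trimethylation at lysine 27 (H3K27me3) is the mark of Polycomb repressive complex 2 and covers silent developmental genes in broad domains. Many genes without a symbol encode small RNAs. Small nucleolar RNAs (snoRNAs) guide the chemical modification of ribosomal RNA and are mostly cut from introns of host genes, spliceosomal small nuclear RNAs (snRNAs) build the splicing machinery, and microRNAs (miRNAs) repress messenger RNAs through a short seed. The annotated start of a miRNA or an intronic snoRNA is the end of the processed RNA or its hairpin, and it is not the start site of the primary transcript.

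Some miRNAs on which results below turn are shown by their mature sequences, 5′ to 3′, with the seed (bases 2 to 8) in capitals. Members with the same seed can then be compared across genomic positions. The sequences are RefSeq's (build GRCm38.p6), where 95 of the 156 miRNAs among the members could be matched. No sequence was matched for mir-124-1, mir-130a, mir-130b, mir-301b, mir-196a-1 or mir-196b, which are named below.
miR-9-5p: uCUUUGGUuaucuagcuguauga
let-7i-5p: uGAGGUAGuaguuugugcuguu
let-7e-5p: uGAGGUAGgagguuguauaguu
miR-17-5p: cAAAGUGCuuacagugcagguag
miR-20a-5p: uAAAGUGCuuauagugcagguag
miR-19a-3p: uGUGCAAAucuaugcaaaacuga
miR-10a-5p: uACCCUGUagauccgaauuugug
miR-10b-5p: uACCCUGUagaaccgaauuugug
miR-99a-5p: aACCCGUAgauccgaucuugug
miR-99b-5p: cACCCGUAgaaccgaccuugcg
miR-132-3p: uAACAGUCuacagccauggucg
miR-212-3p: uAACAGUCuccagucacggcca
miR-21a-5p: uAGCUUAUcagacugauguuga
miR-137-3p: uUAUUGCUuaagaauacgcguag
The 14 sequences carry 9 seeds. let-7i and let-7e share a seed, as do miR-17 and miR-20a, miR-10a and miR-10b, miR-99a and miR-99b, and miR-132 and miR-212. miR-10 and miR-99 have different seeds.

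The neuron H3K4me3 library had the fewest immunoprecipitated reads in peaks, 983266 in 14846 peaks. The other 3 libraries had 3161819 to 3623654 in 26539 to 36053 peaks. Library totals are unknown, and sequencing depth and enrichment were not told apart. Neuron H3K4me3 peaks at start sites of all genes had a median of 73 reads and a fold over input, as the authors gave it, of 4.64. In NSC H3K4me3 the medians were 230 reads and 9.40. Read counts of different libraries were therefore not compared as levels, and a peak missing in neurons may have been below what this library could show. Of 10 listed NSC marker genes, all in the tables, 8 had H3K4me3 in NSCs and 9 in neurons, and none had H3K27me3. Of the 8 neuronal marker genes in the tables, 2 had H3K4me3 in NSCs and 4 in neurons, while 4 had H3K27me3 in NSCs and 1 in neurons.

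Members fell into those beside another gene's promoter and those on their own. A symbol-bearing gene's start site lay within 1 kb of 848 members, on the opposite strand for 647 and on the same strand for 201, at a median distance of 248 bp. The other 3330 members had none within 1 kb, and their median distance to such a start was 52666 bp. Of these, 1274 started inside the body of a symbol-bearing gene, 475 of them on its strand, and 2056 outside every such body. Distances given below from a named gene are to its start site, and the member can lie inside a gene's body. The 1 kb limit cuts through clusters. In the miR-17 cluster, whose host gene Mir17hg has a symbol, mir-17 and mir-18a started 792 and 972 bp from it and mir-19a, mir-20a, mir-19b-1 and mir-92a-1 from 1121 to 1548 bp, although all 6 lay at 1 peak.

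The members with a symbol-bearing start beside them carried H3K4me3 almost as a rule. In NSCs 788 of the 848 had it (92.9%, interval 91 to 94.6%) and in neurons 721 (85%, 82.4 to 87.4%). Over all 18778 genes the shares were 70.4% in NSCs and 61.7% in neurons. H3K27me3 was present at 147 of them in NSCs (17.3%) and 136 in neurons (16%), beside 19.2% and 17.9% of all genes. For 787 of the 788 with H3K4me3 in NSCs the same peak reached within 1 kb of a symbol-bearing start, so the peak cannot be assigned to the member or to its neighbour. Among those with the most NSC H3K4me3 reads were a gene without a description 580 bp from Irs2, an adaptor of insulin signalling, with 927 reads in NSCs and 163 in neurons, and another 146 bp from Pcdh10, a protocadherin, with 905 and 360 reads. Among those with H3K4me3 in a single cell type, the most reads were at a gene described as transmembrane protein 102, with 397 in NSCs and a neuron peak 1936 bp away. An entry described as an immunoglobulin domain-containing protein, 345 bp from Ncrna00085, had 387 in NSCs and a neuron peak 1429 bp away. A gene 232 bp from Ube2c, a ubiquitin-conjugating enzyme of mitosis, had 350 in NSCs. F730043M19Rik, 96 bp from Atxn7l1, had 213 H3K4me3 reads in NSCs alone, and its H3K27me3 peak was 2000 bp with 42 reads in NSCs and 46800 bp with 1270 reads in neurons. 4930581F22Rik, 82 bp from St3gal4, had 223 H3K4me3 reads in NSCs alone and an H3K27me3 peak of 9600 bp in neurons alone.

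The 3330 members on their own carried the marks less often for H3K4me3 and about as often as symbol-bearing genes or more for H3K27me3. H3K4me3 lay at 804 of them in NSCs (24.1%, interval 22.7 to 25.6%) and at 559 in neurons (16.8%, 15.5 to 18.1%), against 79.6% and 70.5% of the 14600 symbol-bearing genes. H3K27me3 lay at 789 in NSCs (23.7%, 22.3 to 25.2%) and at 777 in neurons (23.3%, 21.9 to 24.8%), against 18.2% and 16.7% of symbol-bearing genes. None of the 4 peaks was within 1 kb of 1662 of them (49.9%), against 10% of symbol-bearing genes. Over all genes, 83.3% had any of the 4 peaks. Since a gene enters the tables through a peak that can be far away, these shares describe the listed genes and not the genome. The false discovery rate of the peaks in the gene tables reached 0.00096 for neuron H3K4me3 and was under 1e-20 otherwise.

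Some of these peaks also reached within 1 kb of a symbol-bearing start. That held for the NSC H3K4me3 peak at 233 of the 804 members, the neuron H3K4me3 peak at 189 of 559, the NSC H3K27me3 peak at 180 of 789 and the neuron H3K27me3 peak at 127 of 777. Members also shared peaks with one another, so that the 804 NSC H3K4me3 calls rested on 718 peaks and the 789 NSC H3K27me3 calls on 727. Without the peaks that reach a symbol-bearing start, 575 members had H3K4me3 in NSCs and 379 in neurons.

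The share with H3K4me3 was lower the farther the nearest symbol-bearing start lay. In NSCs it was 82.5% of 206 members at 1 to 2 kb, 46.9% of 226 at 2 to 5 kb, 31.4% of 194 at 5 to 10 kb, 23% of 1004 at 10 to 50 kb and 12.1% of 1136 beyond 100 kb. H3K27me3 in NSCs followed another order, with 17.3% within 1 kb, 40.2% (interval 33.2 to 47.5%) at 5 to 10 kb and 16.3% beyond 100 kb.

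**Figure D1:**
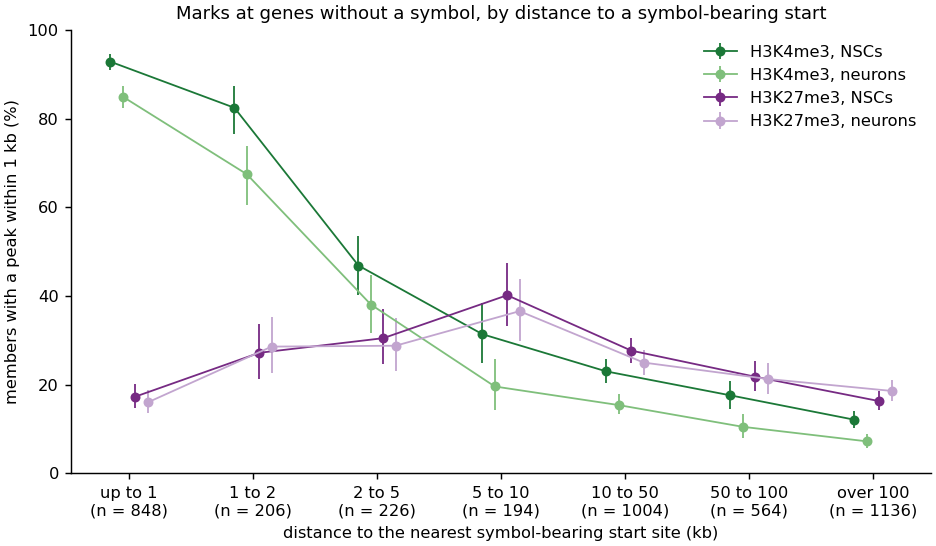
Percentage of the 4178 genes without a symbol that had a peak within 1 kb of the start site (y axis), by distance to the nearest symbol-bearing start site in kb (x axis), for each of the 4 libraries. Points are shares and bars exact 95% intervals. H3K4me3 in NSCs goes from 92.9% within 1 kb to 12.1% beyond 100 kb, while H3K27me3 in NSCs is highest, at 40.2%, between 5 and 10 kb.

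By kind of gene, RefSeq noncoding RNAs stood at the top for H3K4me3 and multicopy small RNAs at the bottom. Of the 103 RefSeq noncoding RNAs on their own, which include long noncoding RNAs and host transcripts of small RNAs, 62 had H3K4me3 in NSCs (60.2%, interval 50.1 to 69.7%) and 49 in neurons (47.6%). Of 205 genes described by a protein or messenger RNA entry, 84 had it in NSCs (41%) and 56 in neurons. The 123 miRNAs followed with 46 in NSCs (37.4%) and 38 in neurons. Among the 1974 genes without any description 445 had it in NSCs (22.5%) and 288 in neurons. The 319 spliceosomal snRNAs had it at 30 in NSCs, the 80 genes of 5S ribosomal RNA at 11 and the 96 copies of 7SK RNA at 7. The intervals of the RefSeq noncoding RNAs and of the snRNAs (6.44 to 13.2%) lay far apart.

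**Figure D2:**
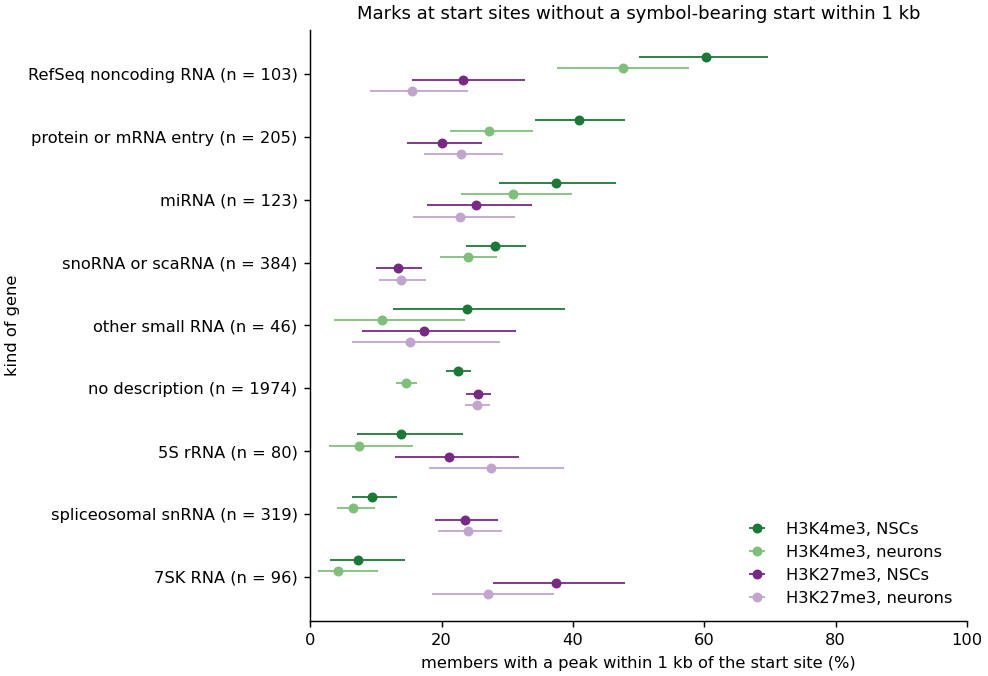
Percentage of members with a peak within 1 kb of the start site (x axis) by kind of gene (y axis), for the 3330 members with no symbol-bearing start within 1 kb. Points are shares and bars exact 95% intervals. For H3K4me3 in NSCs the kinds run from 60.2% of the RefSeq noncoding RNAs to 7.29% of the 7SK copies, while for H3K27me3 in NSCs the 7SK copies are highest at 37.5%.

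The snoRNAs were split by family. Only 5 of 182 SNORA17 entries had H3K4me3 in NSCs (2.75%), against 140 of the 240 other snoRNAs and scaRNAs (58.3%). Of those 240, 103 of the 203 on their own had it in NSCs and 88 in neurons. The start lay inside a symbol-bearing gene's body for 103 of the 203, counted with or without a mark, and introns were not scored. Among all 108 snoRNAs on their own with NSC H3K4me3, the peak reached a symbol-bearing start for 58, and the 108 calls rested on 73 peaks. Near Zbtb37 on chromosome 1, 9 box C/D snoRNAs (SNORD24, SNORD44, SNORD47, SNORD74, SNORD75, SNORD77, SNORD78, SNORD79 and SNORD81) all lay at 1 NSC peak of 4800 bp with 868 immunoprecipitated and 71 input reads. In neurons they lay at 1 peak of 5200 bp with 332 reads. Of these 9, SNORD74 was 545 bp from the Zbtb37 start and the others 1001 to 3459 bp.

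Wide H3K4me3 peaks at members on their own, besides mir-9-2 below, lay at a gene 1362 bp from Bahcc1, with 11600 bp and 975 reads in NSCs and 1800 bp and 102 reads in neurons. Others lay at a gene 2735 bp from 4932422M17Rik, with 12000 bp and 729 reads in NSCs and 8400 bp and 296 reads in neurons, and at a gene 197734 bp from Nfib. The peak at the latter was 10600 bp with 739 reads in NSCs and 12800 bp with 489 reads in neurons. The widest H3K27me3 domains, besides those over Hox genes, lay in NSCs at a SNORA17 entry 11924 bp from Fezf2, a transcription factor of forebrain neurons, with 99800 bp and 3238 reads. In neurons the peak there was 5400 bp with 114 reads. A gene 1249 bp from Cbfa2t3, a transcriptional corepressor, had a domain in both cell types, with 3044 reads over 96800 bp in NSCs and 2691 reads over 89800 bp in neurons. U6 genes 111337 bp from Dytn and 27118 bp from Zdbf2, an imprinted gene, lay in neuron domains of 79200 and 73800 bp, and a gene 9228 bp from Cryba2 in one of 69800 bp. All of these start sites also lay in NSC domains, of 60400, 85600 and 99400 bp in the order above.

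For H3K27me3 the copies of 7SK RNA, an inhibitor of the elongation factor P-TEFb, had the highest share in NSCs of the kinds described. It lay at 36 of 96 copies in NSCs (37.5%, interval 27.8 to 48%) and at 26 in neurons (27.1%), on as many peaks. The 7SK entry at chr9:78023110-78023440 (minus strand, mm9) had H3K4me3, with 106 reads in a 1400 bp peak in NSCs and 28 reads in an 800 bp peak in neurons, and no H3K27me3. The telomerase RNA, the template of telomere synthesis (chr3:30494268-30494679, minus strand), likewise had H3K4me3 alone, with 88 and 32 reads. Copies of such families have near-identical sequences, and how reads that fit several places were handled is not given in the sources used here, so their calls are uncertain.

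H3K4me3 peaks called in NSCs were absent from neurons more often at members on their own than at symbol-bearing genes. The call was lost at 297 of 804 members (36.9%, interval 33.6 to 40.4%) and at 1426 of 11626 symbol-bearing genes (12.3%, 11.7 to 12.9%), beside 13.6% of all genes with the mark in NSCs. Members with a symbol-bearing start beside them lost it at 71 of 788 (9.01%, 7.1 to 11.2%). When only the 14846 strongest H3K4me3 peaks of each cell type were used, 187 of 666 members on their own lost the call (28.1%) and 10.1% of symbol-bearing genes. Leaving out the 233 whose NSC peak reached a symbol-bearing start, the loss was 252 of 571 (44.1%, 40 to 48.3%).

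The 5 losses with the most NSC reads were mir-706, with 865 reads, and genes without a description 494509 bp from Zfp263, 2926 bp from Zbtb7b, 1849 bp from Pfn1 and 18190 bp from Irgm1, with 1605, 533, 480 and 468 reads. All 5 still had a neuron peak farther than 1 kb away, at 1471 bp for mir-706 (240 reads). For the other genes it lay at 7985, 2028, 1196 (145 reads) and 1805 bp, in the order above. The NSC peak near Pfn1 was itself 996 bp from the start site. Over all 297 losses at members on their own, 88 had a neuron peak within 10 kb and 32 within 2 kb, and 209 had none within 10 kb. The gene 494509 bp from Zfp263 lay at a peak with 854 input reads and a fold of 1.92, and the others at folds of 6.85 to 9.83.

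Peaks that were lost were small, with a median of 55 reads over 1400 bp at members on their own, against 262 reads over 2800 bp where the call was kept. The loss by class of NSC peak was as follows. Among peaks of 200 to 1600 bp, 66.7% of 270 members on their own and 33.9% of 2801 symbol-bearing genes lost the call. At 3400 bp and above it was 17.3% of 231 members (interval 12.7 to 22.8%) and 3.67% of 2155 symbol-bearing genes (2.91 to 4.55%). By density the loss was 67.2% against 50.4% in the sparsest class, from 18.5 to 68.8 reads per kb, and 24.8% against 9.3% in the next. In the densest class it was 4 of 97 members (4.12%, 1.13 to 10.2%) against 0.503% (0.26 to 0.878%). Members within a class share peaks in some cases, and how much of the difference comes from peak strength within a class was not tested.

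**Figure D3:**
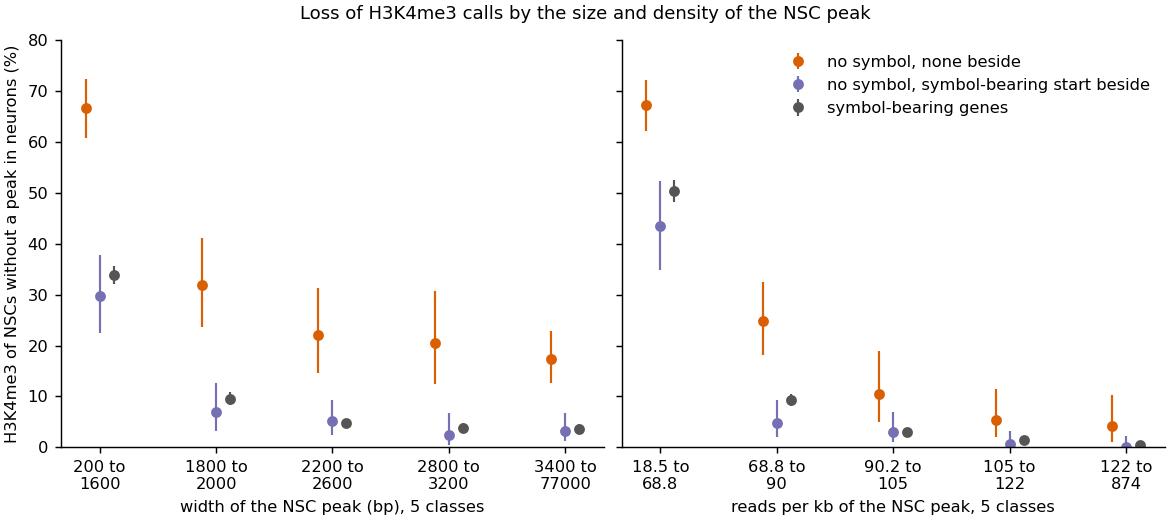
Percentage of H3K4me3 calls of NSCs with no neuron peak within 1 kb (y axis) for 5 classes of NSC peak width in bp (left) and of immunoprecipitated reads per kb (right). Points are shares and bars exact 95% intervals for members on their own, members with a symbol-bearing start within 1 kb, and symbol-bearing genes. Members on their own are above symbol-bearing genes in each of the 10 classes shown, from 66.7% against 33.9% in the narrowest peaks to 17.3% against 3.67% in the widest.

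Gains of H3K4me3 were few. A call was gained at 52 of 2526 members on their own (2.06%, interval 1.54 to 2.69%), beside 2.81% of all genes and 3.36% of symbol-bearing genes without it in NSCs. Chromosome 1 held 14 of the 52, and 8 of the 52 peaks had a fold under 2. Of the 100 gains at symbol-bearing genes, 27 were on chromosome 1 and 14 had a fold under 2. Of the 5 gains with the most reads at members on their own, 3 had a fold under 2. They were genes without a description 138426, 840349 and 9689 bp from Gm13212, Gm13152 and A530032D15Rik. These had 189, 170 and 143 neuron reads over 128, 126 and 95 input reads. The other 2 were a gene 3970 bp from E130112L23Rik, with 145 over 36 reads, and mir-99a. All 5 had an NSC peak farther than 1 kb away. It lay 1505 bp from the gene near E130112L23Rik, with 359 reads and a fold of 9.94, and 1782 bp from mir-99a. For the 3 genes with a fold under 2 it lay at 1757, 5178 and 8861 bp, in the order above. Of the 52 gains 17 had an NSC peak within 10 kb, and 35 had none.

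Calls of H3K27me3 were both lost and gained, and the share lost was near that of all genes. The call was lost at 220 of 789 members on their own (27.9%, interval 24.8 to 31.2%), beside 25.3% of all genes with the mark in NSCs. It was gained at 208 of 2541 (8.19%, 7.15 to 9.32%), beside 4.4% of all genes and 3.71% (3.38 to 4.07%) of symbol-bearing genes without it in NSCs. Members with a symbol-bearing start beside them lost it at 28 of 147 and gained it at 17 of 701. Of the 220 losses, 160 still had a neuron peak within 10 kb and 61 within 2 kb. Of the 208 gains, 101 had an NSC peak within 10 kb and 22 within 2 kb. At symbol-bearing genes the other cell type had a peak within 10 kb for 412 of 663 losses and 142 of 443 gains. A fold under 2 was given for the peak of 35 of the 220 losses and 43 of the 208 gains. At symbol-bearing genes this held for 92 losses and 79 gains.

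The H3K27me3 losses with the most NSC reads lay in domains of 30200 to 143400 bp. A gene 4201 bp from Hoxd3, a homeobox gene of the Hoxd cluster, lay in an NSC domain of 143400 bp with 5057 reads and had no neuron peak within 1 kb. A U109 snoRNA, 23440 bp from the start of St8sia2, a sialyltransferase, lay in a domain of 60600 bp with 1719 reads. Genes 10245 bp from Exosc2, an exosome subunit, and 49338 bp from Atp5g3, an ATP synthase subunit, followed with 1512 and 1438 reads, and a gene 6980 bp from Capns2, a calpain subunit, with 617. Neuron peaks lay 1922 to 3013 bp from these 5 start sites. The 5 gains with the most reads had 291 to 553 neuron reads in domains of 11400 to 25000 bp and folds of 2.46 to 3.52. They included genes without a description 150345, 77706 and 166294 bp from Cobl, Crygf and Fibin. The others were a U6 gene 8924 bp from Olfr1442, an olfactory receptor gene, and a U1 gene 15620 bp from Grb10, an imprinted regulator of growth factor signalling. NSC peaks lay 1518 to 9754 bp from these 5 start sites.

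Members close to genes of the listed developmental families, mostly Hox and Fox, carried H3K27me3 more often. For 38 members on their own the nearest symbol-bearing start within 10 kb belonged to a listed developmental family, 14 of them to Hox and 10 to Fox. H3K27me3 lay at 27 of the 38 in NSCs (71.1%, interval 54.1 to 84.6%) and at 26 in neurons (68.4%). With another gene as the nearest within 10 kb it lay at 176 of 588 in NSCs (29.9%, 26.3 to 33.8%). The 27 calls rested on 18 peaks in NSCs, since neighbours in a Hox cluster share a domain. Of the 14 near Hox genes 13 had it in NSCs and 12 in neurons, and of the 10 near Fox genes 8 had it in each. The few members near Bmp, Evx, Hes, Neurog and Tbx genes had it in both cell types. None near a Meis, Pax, Irx, Pou, Sox or Gli gene had it in either.

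Calls of both marks at the same start site, which in a cell population can come from different cells, were made at 138 members on their own in NSCs (4.14%, interval 3.49 to 4.88%) and at 74 in neurons (2.22%, 1.75 to 2.78%). Over all genes the shares were 8.53% in NSCs and 4.59% in neurons. With a symbol-bearing start beside them the counts were 105 of 848 in NSCs and 59 in neurons. Both marks were called at 81 members in NSCs when peaks reaching a symbol-bearing start were left out. A gene 1319 bp from Erbb4, a neuregulin receptor, had 349 H3K4me3 and 421 H3K27me3 reads in NSCs, and in neurons 376 H3K4me3 reads and no H3K27me3 peak. A gene 1945 bp from Epha7, an ephrin receptor, had both marks in both cell types, with 232 and 527 reads in NSCs and 133 and 303 in neurons. A U3 snoRNA 1166 bp from Galntl1 also had both marks in both cell types, with 250 and 63 reads in NSCs and 99 and 24 in neurons. A gene 4253 bp from Dusp6, a phosphatase of the ERK pathway, had 1184 H3K4me3 reads in NSCs, and 257 H3K4me3 and 87 H3K27me3 reads in neurons. The other members with the most H3K4me3 reads among those with both marks had at least 1 fold under 2 in each case. They were mir-2133-2, mir-2133-1, a gene 55170 bp from 4930467E23Rik, 6820431F20Rik and the gene near A530032D15Rik.

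All 3 hairpins of miR-9, a neural miRNA, had H3K4me3 in both cell types and no H3K27me3. At mir-9-2 (chr13:83878411-83878497, plus strand), 235217 bp from the nearest symbol-bearing start, the NSC peak was 21800 bp wide with 1817 reads over 190 input reads, and the neuron peak 9400 bp with 488 reads. Besides a region where input reads were as many as immunoprecipitated ones, this was the widest NSC H3K4me3 peak at a member on its own. mir-9-1 (chr3:88019520-88019608) had 1068 reads in NSCs and 359 in neurons, and mir-9-3 (chr7:86650150-86650239) had 251 and 134.

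The 3 hairpins of miR-124, a miRNA enriched in neurons, were marked in different ways. At mir-124-1 (chr14:65209494-65209578) there was an H3K27me3 peak of 18800 bp with 524 reads in NSCs, while the nearest neuron H3K27me3 peak lay 1295 bp away. No H3K4me3 peak lay within 1 kb in either cell type, the nearest being at 2095 bp in NSCs and 2695 bp in neurons. At mir-124-2 (chr3:17695662-17695770) an H3K4me3 peak of 2400 bp with 62 reads was called in neurons, and the nearest NSC peak lay 258338 bp away. Its host transcript 2610100L16Rik (Mir124-2hg in RefSeq, chr3:17690057-17700073) gained an H3K4me3 peak with 41 reads and lost an H3K27me3 peak with 72 reads and a fold of 2.19, with the nearest neuron H3K27me3 peak 5458 bp away. At mir-124-3 (chr2:180628736-180628822) both marks were called in both cell types, with 165 H3K4me3 and 457 H3K27me3 reads in NSCs and 89 and 397 in neurons.

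Hairpins within Hox clusters lay in H3K27me3 domains of 107400 to 239200 bp in NSCs and in peaks of 2400 to 128400 bp in neurons. mir-10a (chr11:96178479-96178588) and mir-196a-1 shared a domain of 127800 bp with 5962 reads in NSCs and one of 128400 bp with 3822 reads in neurons. mir-10b (chr2:74564127-74564194), with the same seed as mir-10a, lay in the Hoxd domain of 143400 bp with 5057 reads in NSCs, and its neuron peak was 2400 bp with 57 reads. mir-196a-2 and mir-615 lay in the Hoxc domain of 239200 bp with 11472 reads, and in neurons in peaks of 32200 and 45000 bp. mir-196b, beside Hoxa9, had a 107400 bp domain in NSCs and a 9400 bp peak in neurons, with a small H3K4me3 peak of 55 and 44 reads.

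Of the 123 miRNAs on their own 46 had H3K4me3 in NSCs, and 11 of these had none within 1 kb in neurons (23.9%, interval 12.6 to 38.8%), beside 13.6% of all genes and 36.9% of the members on their own. The 11 included mir-21 (chr11:86397569-86397660), mir-210, a hypoxia-induced miRNA, mir-148a and mir-335, with 205, 143, 82 and 213 NSC reads and the nearest neuron peak at 2340, 6808, 25710 and 2100 bp. mir-706, 4361 bp from the start of Wnk1, had the most, 865 reads in 7600 bp. Beside a symbol-bearing start, mir-130b and mir-301b lost their shared peak of 88 reads, while mir-130a kept its call with 350 reads in NSCs and 72 in neurons. Calls were gained at 3, mir-99a, mir-124-2 and mir-2135-1. The peak at mir-99a (chr16:77599181-77599245) had 133 reads and ended 982 bp before the hairpin, just inside the limit, and an NSC peak of 30 reads lay 1782 bp away. At mir-2135-1 an NSC peak lay 1196 bp away. mir-99b, which has the seed of mir-99a, shared with let-7e an H3K4me3 peak of 387 reads in NSCs and 135 in neurons.

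Other miRNAs kept H3K4me3 in both cell types. let-7i had 311 and 106 reads, the shared peak of mir-132 and mir-212, a pair with the same seed, had 212 and 50, and the miR-17 cluster had 376 and 48. The neuron peak of the miR-17 cluster was 1600 bp wide against 4600 bp in NSCs. mir-137 (chr3:118136761-118136862) lost an H3K4me3 peak of 32 reads and had H3K27me3 in both cell types, over 39400 bp with 848 reads in NSCs and over 6600 bp with 169 in neurons. mir-375 and mir-129-2 had both marks in both cell types. Of the 31 miRNAs on their own with H3K27me3 in NSCs 9 lost it (29%, interval 14.2 to 48%), beside 25.3% of all genes. It was gained at 6 of 92 (6.52%, 2.43 to 13.7%), beside 4.4% of all genes. Both shares are near those of all genes.

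**Figure D4:**
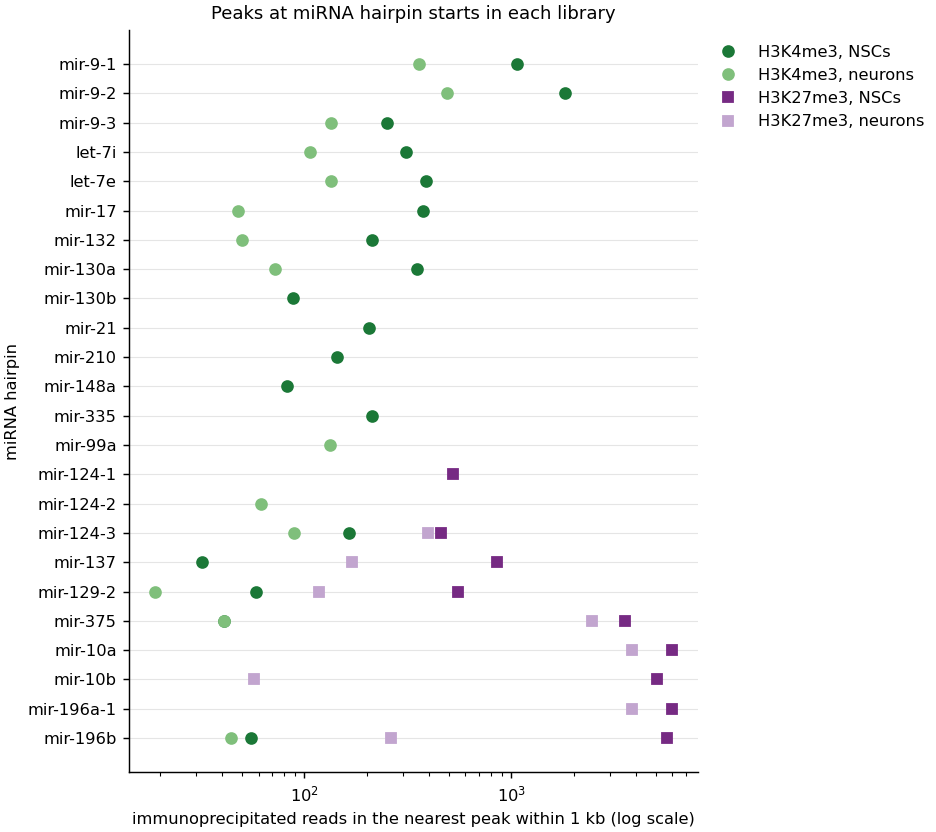
Immunoprecipitated reads in the nearest peak within 1 kb of the hairpin start (x axis, log scale) for 24 miRNAs (y axis), in the 4 libraries. Circles are H3K4me3 and squares H3K27me3, and a missing symbol means no peak within 1 kb. mir-9-1, mir-9-2 and mir-9-3 have H3K4me3 alone, mir-124-1 has H3K27me3 in NSCs alone, and at mir-375 both H3K4me3 symbols coincide at 41 reads.

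Long noncoding RNAs and protein genes that lack a symbol in the tables could be named from their descriptions. Miat, a nuclear long noncoding RNA of neural tissue (chr5:112647222-112657955, minus strand), had small H3K4me3 peaks in both cell types, with 41 reads in NSCs and 47 in neurons. It had an H3K27me3 peak of 9600 bp with 295 reads in NSCs, and the nearest neuron peak lay 16756 bp away. 2010000I03Rik (Jpx in RefSeq, an activator of Xist, chrX:100688895-100701353) had 98 H3K4me3 reads in NSCs, and the nearest neuron peak lay 135896 bp away. lincRNA-p21, a p53 target 12018 bp from Cdkn1a, had 90 reads in NSCs, with the nearest neuron peak at 14494 bp.

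Some of the noncoding RNAs, chosen after their values were seen, had H3K4me3 in both cell types. Snhg12 (chr4:131864593-131866939), a snoRNA host, had 255 reads in NSCs and 63 in neurons, and Snhg6 443 and 118. Dleu2, the host of miR-15 and miR-16, had 348 and 158, and 2700023E23Rik (Dancr) 273 and 87. Rmst, a long noncoding RNA of neural development, had H3K27me3 without H3K4me3, over 16200 bp with 276 reads in NSCs and over 3000 bp with 63 in neurons. Among protein genes, H1f0, a linker histone, had 231 H3K4me3 reads in NSCs and its nearest neuron peak 1648 bp away, with H3K27me3 in both at 99 and 93 reads. Kifc1, a mitotic kinesin, kept a call whose peak was 2200 bp with 290 reads in NSCs and 600 bp with 28 in neurons. Kctd12, Zfp703 and Cebpd kept H3K4me3 with 277, 560 and 278 reads in NSCs and 97, 130 and 129 in neurons.

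The promoters of 3 of these RNAs are shown because they carried H3K4me3 in both cell types (Miat, Snhg12) or in NSCs alone (Jpx). They are RefSeq's on GRCm38.p6, on the strand of the gene, from 250 bases before to 50 after the start, with each CG in capitals.
Miat promoter: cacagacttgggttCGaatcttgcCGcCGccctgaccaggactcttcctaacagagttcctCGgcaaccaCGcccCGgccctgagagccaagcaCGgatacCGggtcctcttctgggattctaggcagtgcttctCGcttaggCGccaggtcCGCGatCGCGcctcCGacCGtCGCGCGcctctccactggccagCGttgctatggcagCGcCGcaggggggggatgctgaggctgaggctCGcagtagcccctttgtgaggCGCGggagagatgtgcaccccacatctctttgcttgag
Jpx promoter: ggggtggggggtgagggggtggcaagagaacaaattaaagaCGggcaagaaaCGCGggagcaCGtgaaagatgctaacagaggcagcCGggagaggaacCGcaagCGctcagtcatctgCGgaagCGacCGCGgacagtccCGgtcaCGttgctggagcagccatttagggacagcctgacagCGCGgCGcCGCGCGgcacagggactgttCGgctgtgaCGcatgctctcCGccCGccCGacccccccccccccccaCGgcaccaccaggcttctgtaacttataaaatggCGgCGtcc
Snhg12 promoter: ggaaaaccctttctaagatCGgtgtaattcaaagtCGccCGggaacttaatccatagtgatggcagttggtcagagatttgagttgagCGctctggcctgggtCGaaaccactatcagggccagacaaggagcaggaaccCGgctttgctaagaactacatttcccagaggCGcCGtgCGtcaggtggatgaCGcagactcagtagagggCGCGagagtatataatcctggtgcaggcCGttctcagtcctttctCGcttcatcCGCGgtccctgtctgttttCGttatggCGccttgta
They lie at chr5:112228899-112229198 (minus), chrX:103493308-103493607 (plus) and chr4:132308428-132308727 (plus) of that build. The motif counted was CG, which reads the same on both strands. The Miat promoter held 25, the Jpx promoter 27 and the Snhg12 promoter 18, and 18.4%, 15.5% and 29.7% of the 32851 promoters in the table held at least as many.

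A single promoter could be matched for 168 members, through 262 members with a RefSeq accession. Among members on their own the median number of CG was 15 in 57 promoters with H3K4me3 in NSCs and 6 in 46 without it, beside 7 over all promoters in the table. It was 17 in the 37 with H3K4me3 in both cell types and 13.5 in the 20 that lost it. Members with a symbol-bearing start beside them and H3K4me3 in NSCs had a median of 27 in 62 promoters. RefSeq and the deposited tables can place a start site differently, which was not tested.

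Some peaks at members on their own had a fold over input under 2. In NSC H3K4me3 this held for 32 of 804 members (3.98%), against 0.301% of symbol-bearing genes with a peak, and in neuron H3K4me3 for 32 of 559 (5.72%), against 0.835%. In NSC H3K27me3 it held for 91 of 789 (11.5%), against 7.74%, and in neuron H3K27me3 for 97 of 777 (12.5%), against 8.35%. The widest NSC H3K4me3 peak, 77000 bp near Pisd-ps1 on chromosome 11, had 15523 immunoprecipitated and 15201 input reads. mir-715 and mir-2133-2 on chromosome 17 shared a 6200 bp peak of all 4 libraries with 2208 to 3746 input reads and folds of 1.34 to 2.05. Wide neuron H3K4me3 peaks with a fold under 2 also lay at a gene 28450 bp from Gm13152, with 662 immunoprecipitated and 435 input reads. Another lay at a gene 3439 bp from Gm10718, with 1484 and 1265. With peaks of a fold under 2 left out, 772 and 528 members on their own had H3K4me3 in NSCs and neurons, and 700 had H3K27me3 in NSCs.

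**Figure D5:**
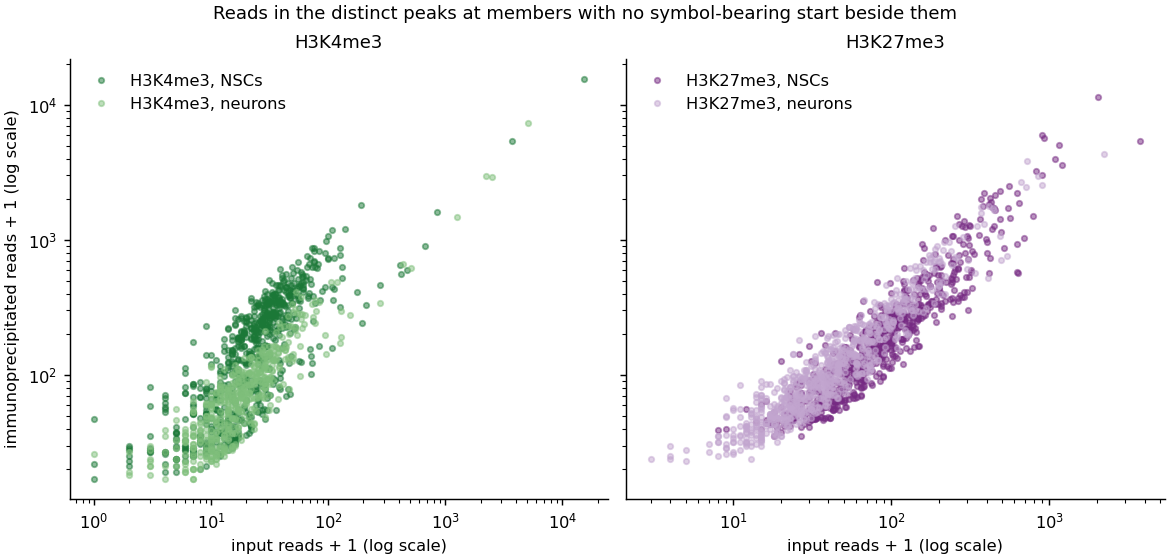
Immunoprecipitated reads plus 1 (y axis, log scale) against input reads plus 1 (x axis, log scale) in the distinct peaks within 1 kb of the 3330 members on their own, for H3K4me3 (left) and H3K27me3 (right). Each point is 1 peak. Most H3K4me3 peaks lie far above their input, and a tail of peaks with high input reads reaches 15523 immunoprecipitated and 15201 input reads.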

How the data were processed

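Peaks were made by the authors from reads handled with FastQC, Bowtie, SAMtools and SICER on the mouse build mm9, per the submitters' processing notes, and their versions, settings and duplicate handling were not given in these sources. Each deposited peak list holds the count of immunoprecipitated and input reads per peak, a p-value, a false discovery rate (FDR) and the fold over input. Peaks were called per library, and all listed ones have an FDR under 0.001. The deposited gene tables gave gene positions, symbols and descriptions. Library totals are unknown.

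Distances from start sites to peaks and to the start sites of the 14600 symbol-bearing genes in the tables were computed with Python 3.11.15, pandas 2.3.3, numpy 2.4.6 and scipy 1.17.1. Lost means a peak within 1000 bp in NSCs and none in neurons, and gained the reverse. The distance steps were tested on simulated data, with 0 wrong in 2000 genes. The members, lists and rules were chosen with earlier results of these data known. Named members were taken from those on their own with the widest peaks, or the most reads among losses, gains and double marks (5 of each), and those beside a symbol-bearing start with the most reads. Not every member of these lists is named. The miRNAs, long noncoding RNAs and protein genes named besides, and CG counts, were chosen after their values were seen.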

Additional observations from a re-analysis of the deposited data

How the results depend on the processing

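No paired analysis was possible because each group held 1 library. Counts for members with no symbol-bearing start within 1 kb stayed within 1.5 times the reported ones with a limit of 500 or 2000 bp to the peak, an overlap of 500 bp, without chromosome 1, with start sites within 1000 bp of one another counted once, and with a fold of at least 2. With a limit of 5000 bp, H3K4me3 was lost at 471 and gained at 113, and both marks lay at 286 in NSCs and 180 in neurons. With only peaks of FDR under 1e-20, H3K4me3 in neurons lay at 303, H3K27me3 at 520 in NSCs and 383 in neurons, H3K4me3 gains were 14, H3K27me3 gains 103, and both marks 53 and 10. With equal numbers of peaks, H3K4me3 was lost at 187 and gained at 80, and 90 had both marks in NSCs. In the authors' gene tables all peaks of H3K27me3 and of NSC H3K4me3 had an FDR under 1e-20, while those of neuron H3K4me3 reached 0.00096. Members on their own thus entered through NSC H3K4me3 (1303 listed) under a stricter limit than through neuron H3K4me3 (1781 listed). By these tables H3K27me3 lay at 298 in NSCs and 187 in neurons, and gains of it were 63. Both marks lay at 31 in NSCs and 17 in neurons. Calling a peak absent only when none lay within 10000 bp left 60 losses and 107 gains of H3K27me3. Leaving out peaks that reach a symbol-bearing start, chosen after seeing the data as was the fold limit, gave 81 members with both marks in NSCs. A neighbour limit of 5000 bp put 1280 members beside a symbol-bearing start, and requiring members to lie outside every symbol-bearing gene's body as well put 2122 in that set and left 2056 on their own. Neighbours from the RefSeq reference were not run, because its build differs. The cause of these shifts was not tested. The H3K4me3 loss at members on their own was above that of symbol-bearing genes for all listed peaks (36.9% against 12.3%), equal numbers (28.1% against 10.1%) and FDR under 1e-20 (53.2% against 39.5%). The low number of reads in the peaks of the neuron H3K4me3 library limits every statement on lost calls.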
